A study of Mus musculus with 8 samples.

Results

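Mitf, Tfeb, Tfe3 and Tfec are the 4 genes of the MiT/TFE family of transcription factors. They were taken by symbol from the RNA data of sorted mouse liver macrophages, and all 4 were found among the 35906 genes of the summed count table and among the 29956 named genes of the separate FPKM table. Their 42 annotated transcripts were all found among the 116405 transcripts that could be assigned to a gene. The 8 libraries were made from liver cells of BALB/c WT (wild-type) mice, 4 given vehicle and 4 given carbon tetrachloride (CCl4), a hepatotoxin used to produce liver fibrosis. Both groups shared strain and genotype and differed in treatment. No source used here gives the age of the mice, or how much CCl4 they received and for how long. Cells were sorted for the leukocyte surface protein CD45 and the macrophage surface protein F4/80, and the series' design text adds absence of the endothelial protein CD31. Whether the libraries stand for separate mice is not stated, so the p-values below measure the spread between these libraries, which may be partly technical.

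MiT/TFE proteins carry a basic helix-loop-helix leucine zipper, bind DNA as homodimers or as heterodimers with one another, and recognise E-box sequences. Tfeb, Tfe3 and Mitf are known as activators of lysosomal and autophagy genes, the CLEAR network, and are held in the cytoplasm by phosphorylation when mTORC1 is active on the lysosome. This control acts on the protein and its location, which RNA does not show. Mitf and Tfe3 also act in osteoclasts and Mitf in melanocytes and mast cells, whereas Tfec is known for expression in the macrophage lineage.

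Library totals ran from 19489104 to 26196063 estimated counts, the lowest in CCl4 4 and vehicle 2. The F4/80 gene Adgre1 was at 1057 to 1511 CPM (counts scaled to a fixed library total) in vehicle and 1003 to 1387 in CCl4, and the CD31 gene Pecam1 was at 47.7 to 99.4 and 23.9 to 27.7. Summed over 8 Kupffer cell markers, the level was 22500 to 31400 CPM in vehicle and 6293 to 11090 in CCl4, and 7 of the 8 fell. The 6 markers of lipid-associated macrophages summed to 1088 to 1617 CPM in vehicle and 7977 to 16400 in CCl4, and all 6 rose. The 9 pan-macrophage markers summed to 28570 to 33470 CPM in vehicle and 53380 to 63300 in CCl4, and 2 rose and 2 fell. Among other cell types, all 5 mesothelial, 4 of 8 neutrophil, 2 of 6 monocyte and 1 of 5 dendritic cell markers rose. The mesothelial sum was 3.09 to 10.45 CPM in vehicle and 42.9 to 110.6 in CCl4. The neutrophil sum was 30.4 to 87.2 CPM in vehicle and 68.4 to 262 in CCl4. In the hepatocyte list 1 of 6 markers fell, and in the B cell list 1 of 5. For scale, 8.93% of all tested genes were called higher and 6.26% lower. Of 7 sinusoidal endothelial markers 1 rose and 4 fell, and of 7 stellate cell and fibroblast markers 3 rose and 1 fell. The libraries were bulk, so that fewer cells of a type and less RNA per cell cannot be told apart, here and in every result below.

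The Mitf gene spans chr6:97807052-98021349 on the plus strand (GRCm38, GENCODE M21) and has 8 transcripts in 4 classes by first exon. The most upstream class (Mitf-207, Mitf-202 and Mitf-206) corresponds by position to the broadly used Mitf-A start, and the most downstream (Mitf-201, Mitf-205 and Mitf-208) to the melanocyte start Mitf-M. Tfec spans chr6:16833373-16898441 on the minus strand, with 5 transcripts in 3 classes. The sequences before the 2 Mitf starts and the main Tfec start are shown because nearly all Mitf and Tfec RNA was assigned to transcripts of one start. Each holds the 250 bases before the annotated start, from RefSeq (GRCm38.p6), read 5′ to 3′ on the strand of the gene. Capitals mark a cyclic AMP response element.
Mitf upstream start, chr6:97806808-97807057, plus strand: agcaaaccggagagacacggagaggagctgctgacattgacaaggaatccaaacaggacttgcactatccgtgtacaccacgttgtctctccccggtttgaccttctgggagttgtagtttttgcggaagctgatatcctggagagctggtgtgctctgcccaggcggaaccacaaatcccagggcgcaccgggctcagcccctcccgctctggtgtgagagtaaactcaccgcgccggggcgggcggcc
Mitf downstream start, chr6:97991533-97991782, plus strand: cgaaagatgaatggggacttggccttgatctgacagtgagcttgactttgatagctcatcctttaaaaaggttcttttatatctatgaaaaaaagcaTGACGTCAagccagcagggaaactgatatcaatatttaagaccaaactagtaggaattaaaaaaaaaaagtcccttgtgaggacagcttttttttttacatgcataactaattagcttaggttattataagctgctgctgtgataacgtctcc
Tfec start, chr6:16898442-16898691, minus strand: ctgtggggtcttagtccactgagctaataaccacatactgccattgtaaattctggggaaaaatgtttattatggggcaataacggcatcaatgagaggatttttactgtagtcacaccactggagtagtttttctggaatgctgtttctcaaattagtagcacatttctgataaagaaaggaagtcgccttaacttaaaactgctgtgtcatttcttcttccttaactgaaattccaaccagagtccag

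Windows of 300 bases, from 250 before to 50 after a start, were available for 9 starts of the 4 genes and were searched on both strands for 6 motifs. These were the E-box CACGTG, the CLEAR sequence, which is that E-box with GT before and AC after it, the M-box core TCATGTG, the PU.1 sequence GAGGAAGT, the cyclic AMP response element TGACGTCA and the AP-1 sequence TGANTCA. The window of the downstream Mitf start held the cyclic AMP response element, which begins 153 bases before the start (position -153), and 1.79% of 32851 RefSeq windows of that length held one. The second Tfe3 window held the AP-1 sequence as TGAATCA at position 35, a motif found in 7.81% of the windows. The other 7 windows held none of the 6 motifs. For scale, 7.15% of windows held the E-box and 0.326% the CLEAR sequence.

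Mitf-202 and Mitf-207, the main Mitf coding transcripts here, share the upstream start but not the end. Mitf-202 runs to base 98021349 and is 4881 bases long, whereas Mitf-207 runs to 98018593 and is 2113 bases long. Inside the gene these transcripts differ by 18 bases, chr6:98006123-98006140. The stretch is an alternative part of a coding exon next to the DNA-binding region. The capitals mark those bases, with 24 bases of the shared exon sequence on each side.
Mitf-202: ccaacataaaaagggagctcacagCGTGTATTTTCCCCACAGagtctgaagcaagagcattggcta
Mitf-207: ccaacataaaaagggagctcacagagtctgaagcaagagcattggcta

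At the gene level, Mitf rose and Tfec fell in CCl4, while Tfeb and Tfe3 did not pass the test. Each level is given as CPM scaled between libraries by TMM factors, and changes were tested with edgeR's quasi-likelihood test on estimated counts summed per gene, with Benjamini-Hochberg adjustment over 15212 genes and a threshold of 0.05. Called were 2 of the 4 genes, 1 in each direction. Over all tested genes 15.2% were called, 8.93% higher and 6.26% lower, so that with only 4 members no share can be set against the background.

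Tfec is the family member known for its restriction to the macrophage lineage and for induction by interleukin-4. It was at 38.1, 43.4, 44.4 and 39.3 CPM in vehicle 1 to 4 and at 23.2, 27.8, 22.0 and 22.8 CPM in CCl4 1 to 4. Every CCl4 library was below every vehicle library. Of all tested genes, 22.5% had groups that did not overlap, 13% in the higher and 9.49% in the lower direction. The mean went from 41.3 ± 3.08 to 24.0 ± 2.64 CPM (SD, n = 4). On the log2 scale this was -0.78 (SE 0.13), with an edgeR adjusted p = 0.00207. The Kupffer cell markers moved in the same direction, as given above. Their part in the fall of Tfec was not tested.

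Mitf, whose protein regulates lysosomal, osteoclast and pigment genes, was at 22.6, 26.8, 20.8 and 18.0 CPM in vehicle 1 to 4 and at 47.6, 25.9, 42.7 and 46.3 CPM in CCl4 1 to 4. CCl4 1, 3 and 4 were above all vehicle libraries, and CCl4 2 lay just below vehicle 2, so the groups overlapped. The mean went from 22.1 ± 3.71 to 40.7 ± 10.0 CPM (SD, n = 4). On the log2 scale this was 0.88 (SE 0.20), with an edgeR adjusted p = 0.0124. Without CCl4 2 the log2 fold change was 1.05. The markers of lipid-associated macrophages, given above, moved in the same direction. Their part in the rise of Mitf was not tested. Of the other cells known for Mitf, 8 mast cell markers summed to 32.2 to 106 CPM in vehicle and 51.8 to 95.5 in CCl4, which is above the level of Mitf itself, and none of the 4 tested was called. Most of this sum was Hdc, the histamine-forming enzyme gene, at 24.8 to 93.9 CPM in vehicle and 39.9 to 80.2 in CCl4, followed by Kit, the stem cell factor receptor gene, at 4.74 to 9.22 and 7.46 to 13.1 CPM. The other 6 were each under 2 CPM in every library. The 6 melanocyte markers summed to 2.1 to 8.39 CPM in vehicle and 1.96 to 8.05 in CCl4. The part of such cells in the level of Mitf was not tested.

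Tfeb, known as a main activator of the CLEAR network, was at 20.3, 18.8, 18.4 and 21.9 CPM in vehicle and at 24.7, 19.4, 28.4 and 20.3 CPM in CCl4. The groups overlapped, with CCl4 1 and CCl4 3 above all vehicle libraries. The log2 fold change was 0.23 (SE 0.16, edgeR adjusted p = 0.386).

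Tfe3, the closest partner of Tfeb in lysosomal control, was at 174, 84.7, 176 and 180.4 CPM in vehicle and at 167, 166, 204 and 164 CPM in CCl4. Vehicle 2 stood far below the other 7 libraries, which overlapped. The log2 fold change was 0.19 (SE 0.22, edgeR adjusted p = 0.645), and without vehicle 2 it was -0.01. The 9 pan-macrophage markers summed to 33470 CPM in vehicle 2, the highest of the vehicle group. Its Kupffer cell sum was the lowest of that group, at 22500 CPM against 27920 to 31400. Its stellate cell and fibroblast sum was the highest, at 500.8 CPM against 116.6 to 346.7. The part of such differences in its Tfe3 level was not tested.

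**Figure D1:**
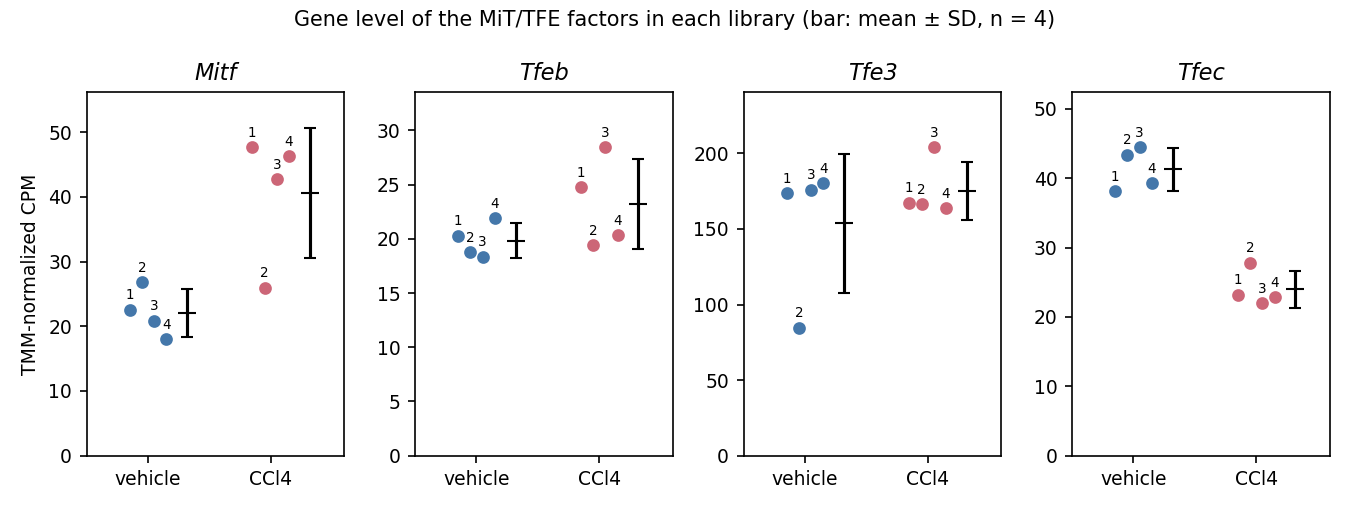
TMM-normalized CPM of Mitf, Tfeb, Tfe3 and Tfec in 4 vehicle and 4 CCl4 libraries; each point is a library with its replicate number, and the bar is the mean ± SD. Tfec separates fully, CCl4 2 keeps Mitf from doing so, and vehicle 2 stands apart for Tfe3 at 84.7 CPM.

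To set the genes beside one another, levels were taken per length as TPM (counts per length, scaled to a fixed total), summed over the transcripts of a gene. Tfe3 was highest in every library, at 39.8 to 96.9 TPM in vehicle and 71.5 to 79.7 in CCl4. In all 4 vehicle libraries the order was Tfe3, Tfec, Tfeb, Mitf. CCl4 2 kept that order, whereas in CCl4 1, 3 and 4 it was Tfe3, Tfeb, Mitf, Tfec.

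Per length, Tfec was at 28.0, 32.7, 34.8 and 32.3 TPM in vehicle and at 16.8, 21.0, 14.7 and 18.4 TPM in CCl4. Mitf was at 9.91, 11.9, 9.75 and 7.88 TPM in vehicle and at 19.8, 11.0, 16.0 and 20.5 TPM in CCl4. Tfeb was at 20.4, 14.6, 17.3 and 19.4 TPM in vehicle and at 20.5, 17.5, 28.9 and 22.9 TPM in CCl4. In vehicle the ranges of the 4 genes did not touch. In CCl4 those of Tfeb, Mitf and Tfec overlapped, so the order of these 3 is not separated by the spread between libraries.

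The 4 genes together were at 133.6 ± 24.8 TPM in vehicle and 134.4 ± 6.39 TPM in CCl4 (SD, n = 4; exact permutation p = 0.971, two-sided). Of that sum, Tfec held 20.9%, 33.0%, 24.0% and 20.6% in vehicle and 13.1%, 16.3%, 10.6% and 13.1% in CCl4. Each CCl4 library was below each vehicle library. The exact two-sided permutation test gave p = 0.0286, the smallest that 4 against 4 allows, and 0.114 after adjustment over the 4 genes, so the difference did not pass. A single share at the smallest p cannot pass after this adjustment, so nothing is read from that outcome. Mitf held 7.79% ± 2.98 in vehicle and 12.5% ± 3.15 in CCl4 (SD, n = 4; exact permutation p = 0.0857, adjusted 0.171). Tfeb went from 13.6% to 16.6% (exact permutation p = 0.143, adjusted 0.19) and Tfe3 from 54.0% to 57.6% (exact permutation p = 0.8). These last 2 differences rest on the setting: that of Tfe3, 3.64 percentage points, was -0.945 without vehicle 2 and -0.432 without vehicle 2 and CCl4 4, and that of Tfeb, 3.04 points, was 0.208 as a share of estimated counts and 1.66 without CCl4 3.

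**Figure D2:**
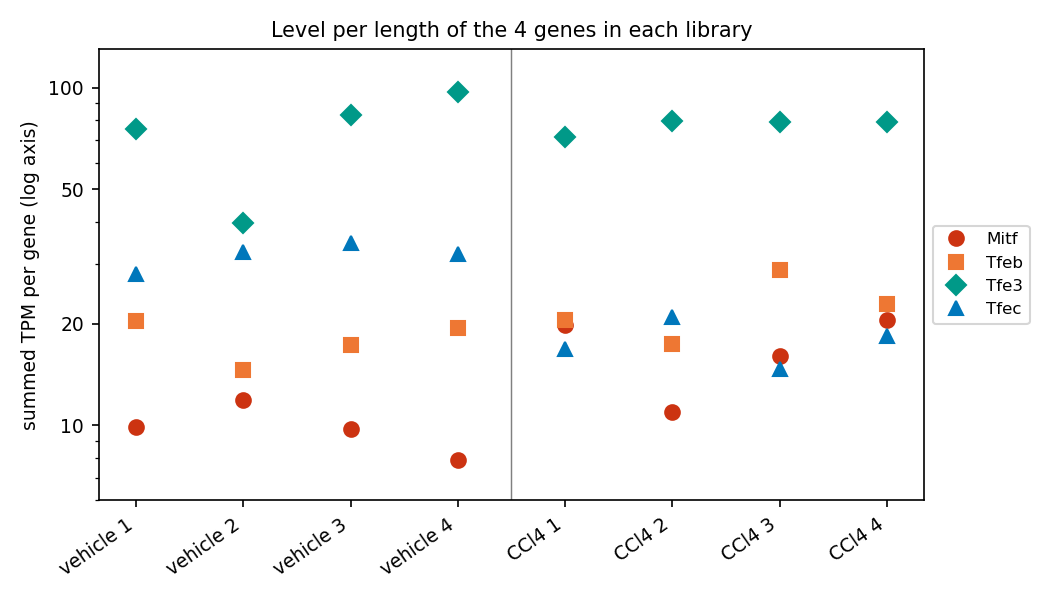
Summed TPM of the 4 genes in each library on a log axis, one marker per gene, vehicle to the left of the line and CCl4 to the right. Tfe3 is highest throughout, and Tfec lies above Tfeb and Mitf in vehicle but in CCl4 only in CCl4 2.

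The FPKM table (fragments scaled for length and depth, deposited for the whole series) is another quantification of the same libraries. It was tested with limma on log2(FPKM + 1), a scale that understates the change of low genes, and 1 of the 4 genes was called, against 15.6% of 6359 genes tested (7.05% higher, 8.54% lower). Tfec was at 3.00, 3.09, 3.41 and 3.09 FPKM in vehicle and at 1.58, 2.04, 1.57 and 1.24 in CCl4. The groups were again apart, and the log2 difference was -0.68 (SE 0.15, limma adjusted p = 0.00478). Mitf was at 0.982, 1.31, 1.01 and 0.634 FPKM in vehicle and at 1.68, 0.929, 1.34 and 1.31 in CCl4. The groups overlapped more than in the counts, and the log2 difference of 0.23 (SE 0.15, limma adjusted p = 0.324) did not pass. With 0.1 added to the FPKM in place of 1, the difference was 0.40 (limma adjusted p = 0.347), still below the 0.88 of the counts. The rise of Mitf is therefore called in the summed counts and not in the FPKM table. Tfeb differed by 0.25 (limma adjusted p = 0.444) and Tfe3 by -0.02 (limma adjusted p = 0.959).

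At the transcript level, 20 of the 42 transcripts passed the filter on low counts, and 1 of these was called, Tfec-201. Over all 38645 transcripts tested, 4.01% were called, 2.41% higher and 1.59% lower. Tfec-201, the full coding transcript of the gene, was at 23.9, 28.5, 29.2 and 27.9 TPM in vehicle and at 14.7, 16.7, 13.0 and 13.9 TPM in CCl4. The CCl4 libraries were all below the vehicle libraries. Of the transcripts tested, 14.4% had groups that did not overlap, 8.34% in the higher and 6.07% in the lower direction. Its log2 fold change was -0.93 (SE 0.15, edgeR adjusted p = 0.0111).

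Mitf-202, the coding transcript with the 18 bases shown above, was at 3.79, 4.59, 4.06 and 3.82 TPM in vehicle and at 8.65, 4.81, 6.98 and 10.5 TPM in CCl4. Mitf-207, without them, was at 2.35, 1.52, 1.46 and 1.76 TPM in vehicle and at 3.80, 2.77, 4.22 and 4.03 TPM in CCl4. For both, CCl4 2 was the lowest of its group and lay above the vehicle libraries, so the groups did not overlap. Neither passed the test: Mitf-202 changed by a log2 of 0.89 (SE 0.23; edgeR adjusted p = 0.0692) and Mitf-207 by 1.05 (SE 0.30; edgeR adjusted p = 0.0978). Without CCl4 2, Mitf-202 passed (log2 fold change 1.06, edgeR adjusted p = 0.0188). Mitf-206, which keeps an intron and has no coding sequence, changed by 0.32 (SE 0.40, edgeR adjusted p = 0.772).

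**Figure D3:**
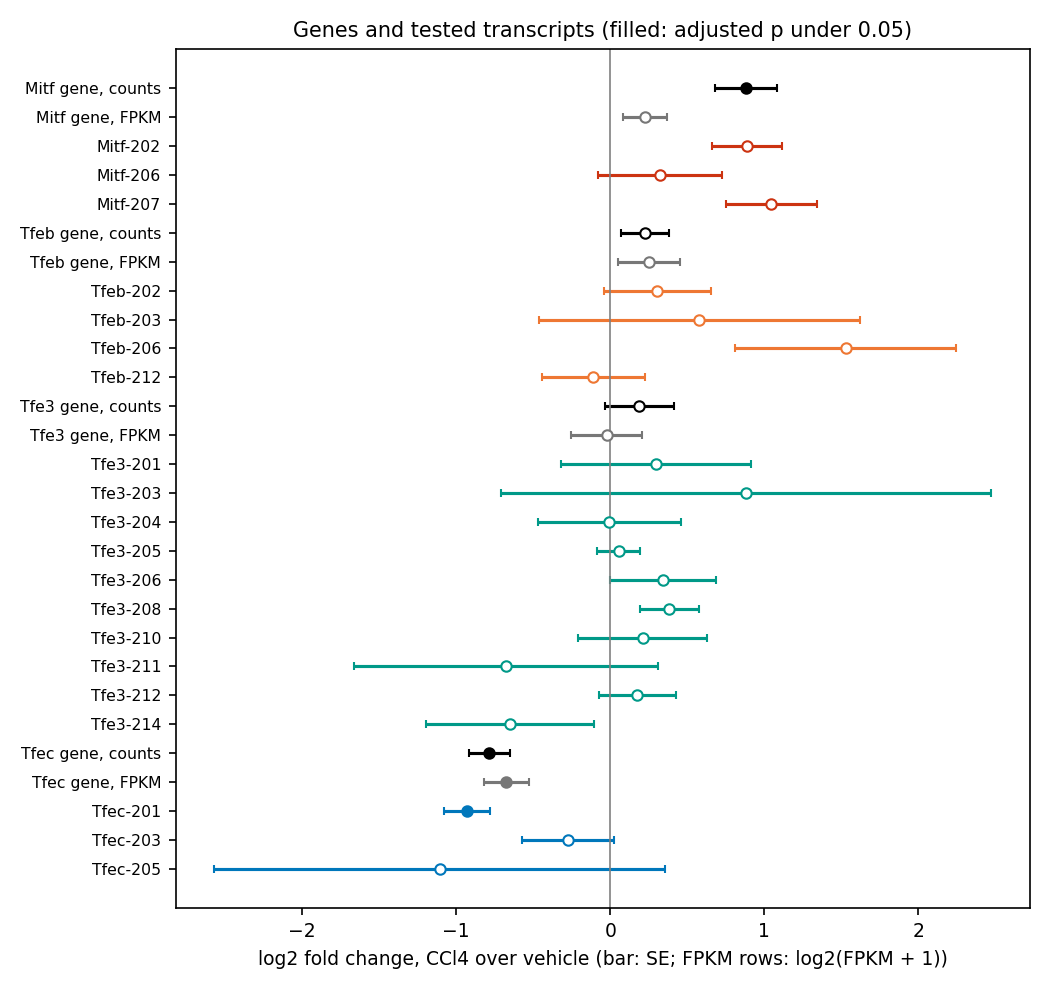
Log2 fold change, CCl4 over vehicle, of each gene in the counts (black) and the FPKM table (grey, on log2(FPKM + 1)) and of the 20 tested transcripts (coloured by gene); bars are SE and filled points passed an adjusted p of 0.05. Filled are Mitf in the counts, Tfec in both tables and Tfec-201.

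The use of a transcript is its share in the TPM of its gene. No use differed by a test: none of the 20 tested transcripts was called by edgeR's test of each transcript against its gene (adjusted p = 0.99998 for each), where 0.079% of 32897 transcripts were called (0.0517% higher, 0.0274% lower), and none of 26 shares tested by exact permutation passed (smallest raw p = 0.0571, for Tfec-203). The permutation test could hardly pass: 0.0286 is the smallest raw p that 4 against 4 allows, and a single share at that p would have an adjusted p of 0.743 over 26. Neither result shows that use was equal, and the edgeR test missed most changes of use in data simulated with the spread of these libraries. The shares rest on kallisto's division of reads between transcripts, which depends on the 31-base stretches that only one transcript holds: 2642 in Mitf-202 but 6 in Mitf-207 and in Tfe3-201, and none in Tfe3-205.

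In Mitf, the upstream start class held 97.5% ± 1.52 of the TPM in vehicle and 96.8% ± 1.22 in CCl4 (SD, n = 4; exact permutation p = 0.543, adjusted 0.83). The 2642 stretches that only Mitf-202 holds and the 900 that only Mitf-206 holds lie mostly outside their shared first exon. RNA from another start that held these parts would be assigned to this class, so the share does not measure start use alone. The downstream class, of the Mitf-M type, held 1.80% and 2.36%, and the pair of classes between them at most 1.88% in any library. Mitf-203, which starts in one of these, was at 0 in all vehicle libraries, where 3 counts would be 0.519% to 0.668% of the gene's counts. That limit covers counting error only.

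Within the upstream class, Mitf-202 held 41.7% ± 4.74 of the gene in vehicle and 45.5% ± 3.74 in CCl4, Mitf-207 held 18.4% ± 5.37 and 22.6% ± 3.69, and Mitf-206 held 37.3% ± 8.30 and 28.6% ± 3.11 (SD, n = 4). All 3 overlapped between the groups. Of Mitf-202 and Mitf-207 together, Mitf-202 held 69.7% ± 6.01 in vehicle and 66.9% ± 4.74 in CCl4, the larger part in both groups. Mitf-202 also runs further downstream, as given above, so this split does not measure the 18 bases alone.

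In Tfec, Tfec-201 held 85.7% ± 1.39 of the gene in vehicle and 82.7% ± 6.34 in CCl4 (SD, n = 4). Tfec-203, which keeps an intron, held 5.34%, 4.57%, 7.90% and 6.98% in vehicle and 8.05%, 8.92%, 7.19% and 13.6% in CCl4. The groups overlapped through CCl4 3. Tfec-205, annotated for nonsense-mediated decay, lacks a 76-base exon of Tfec-201 at chr6:16840469-16840544 and held 3.99% and 3.12%, with 0 in 3 of the 8 libraries.

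Tfe3 spans chrX:7762560-7775202 on the plus strand, with 14 transcripts in 6 start classes. Transcripts that code from the upstream start codon, at 7762945, held 24.1%, 4.02%, 19.4% and 22.6% of the gene in vehicle and 28.4%, 17.4%, 19.4% and 23.5% in CCl4. Vehicle 2 was again apart, and the other libraries overlapped. Those that code from the downstream codon, at 7766640, and give a shorter protein held 56.6% ± 4.62 in vehicle and 54.5% ± 5.22 in CCl4 (SD, n = 4), the larger part in both groups. Tfe3-204 held 26.8% and 26.5%, and Tfe3-205 held 21.7% and 19.6%. Tfe3-205 starts at base 7764087, after the 70-base first exon of Tfe3-204 at chrX:7763959-7764028. It also lacks later exons of Tfe3-204, of 114 bases at chrX:7765507-7765620 and of 105 bases at chrX:7767893-7767997. With no stretch of its own, the level of Tfe3-205 is inferred from what its neighbours leave over.

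Tfeb spans chr17:47737030-47792419 on the plus strand and has 15 transcripts in 13 start classes, most of them with differing noncoding first exons. Tfeb-202, a full coding transcript, held 31.8% ± 13.8 in vehicle and 32.6% ± 7.27 in CCl4, and Tfeb-212, an incompletely annotated one, 34.2% ± 11.9 and 24.7% ± 6.39 (SD, n = 4). With 404 to 628 counts of the gene per library, single transcripts came and went: Tfeb-201 held 7.27% in vehicle 1 and 22.8% in CCl4 1, and was near 0 in the other 6 libraries. Transcripts without a coding sequence had 0, 0, 0 and 4.26 estimated counts in vehicle and 2.89, 7.26, 15.7 and 8.90 in CCl4. Of the gene's TPM they held 0%, 0%, 0% and 3.04% in vehicle and 3.74%, 9.05%, 19.3% and 12.3% in CCl4, so these shares did not overlap. The transcripts are only 324 to 647 bases long, so a few counts weigh heavily per length. These few counts are at most 2.50% of the gene's counts in any library, and no difference is read from them.

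**Figure D4:**
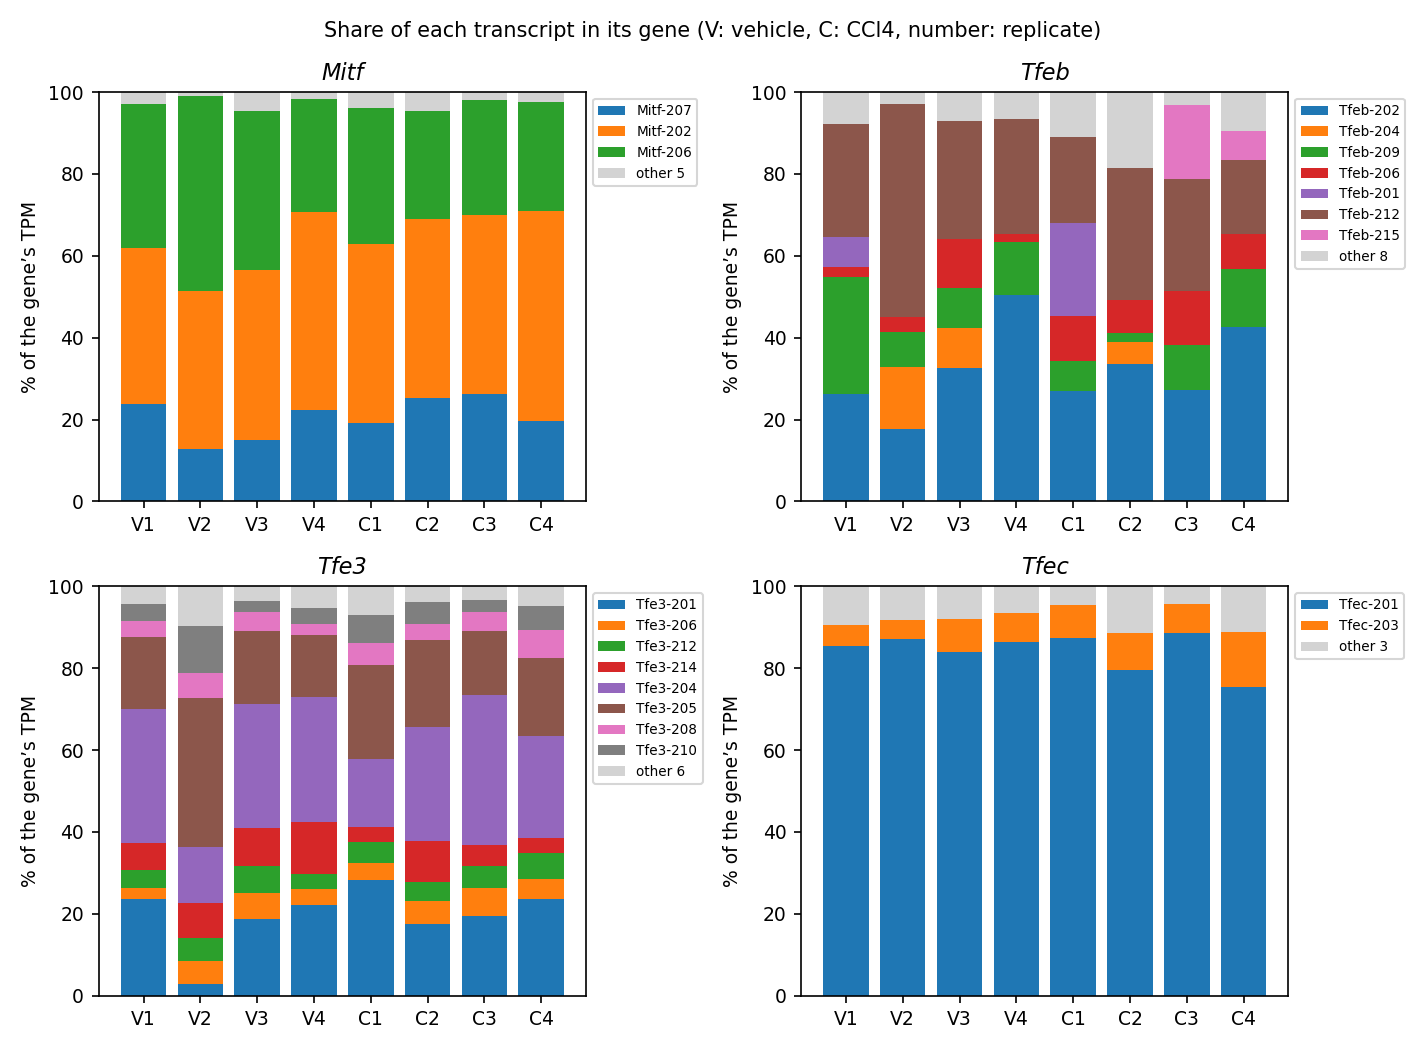
Percent of each gene's TPM held by each transcript, 1 bar per library (V vehicle, C CCl4); transcripts with a mean share of 5% or more in either group are coloured and the others pooled in grey. Tfec-201 holds 75.3% or more of Tfec in every library, while Tfeb varies between libraries of one group and vehicle 2 differs from the others in Tfe3.

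Around the 4 genes, 126 genes in 10 lists of regulators, partners and known targets were followed, of which 118 were tested. Of these, 29 rose and 4 fell, 28.0% against 15.2% of all genes, with a median log2 fold change of 0.25 against -0.03 over all genes. The lists were chosen with earlier results of these data known, so they say nothing independent of their direction, and whether any of these genes responds to a MiT/TFE factor was not tested.

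Among the regulators, mTORC1 and its TSC-Rheb switch had 1 of 8 genes called, Tsc1, which restrains mTORC1 (log2 fold change 0.45, SE 0.14, edgeR adjusted p = 0.0473). This is 12.5% of the list against 15.2% of all genes, and Tsc1 passed in 3 of 16 alternatives (DESeq2, length-scaled TPM and without CCl4 1; adjusted p up to 0.194 in the others), so no change is read from this list. Rheb, which activates mTORC1 and had the highest mean TPM over both groups, the meaning of most abundant in each list here, was at 82.5 to 131 CPM in vehicle and 76.0 to 108 in CCl4. Of 12 genes of the Rag GTPases, Ragulator and folliculin complex, which bring the factors to mTORC1 on the lysosome, 3 rose (25%) and none fell. They were Fnip2, a folliculin partner, from 12.8 ± 2.06 to 37.6 ± 7.08 CPM, Rragd, a Rag GTPase, from 9.20 ± 3.79 to 18.5 ± 2.65 CPM, and Rraga, another, from 24.2 ± 1.38 to 37.3 ± 2.90 CPM (SD, n = 4). Rragd did not pass in 5 of 16 alternatives, length-scaled TPM and leaving out vehicle 3, vehicle 4, CCl4 1 or CCl4 3 (edgeR adjusted p up to 0.0715). Lamtor2, the most abundant Ragulator gene, did not pass (log2 fold change -0.23, edgeR adjusted p = 0.528).

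Of 18 tested genes for calcineurin, the 14-3-3 proteins that hold the factors in the cytoplasm, nuclear export and kinases, 3 rose. These were the kinase genes Map4k3 (log2 fold change 1.32), Mapk3 (1.16) and Akt2 (0.59). The share of 16.7% is near the 15.2% of all genes, so nothing is read from the count, and Akt2 did not pass without vehicle 3, vehicle 4, CCl4 1 or CCl4 3 (edgeR adjusted p up to 0.079). No calcineurin or 14-3-3 gene was called, and the most abundant 14-3-3 gene, Ywhah, was at 369 ± 20.3 CPM in vehicle and 452 ± 55.1 in CCl4 (SD, n = 4; edgeR adjusted p = 0.208).

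Among known targets, 7 of 20 acid hydrolase and cofactor genes rose and none fell (35% against 15.2% of all genes). The median log2 fold change of the list was 0.51. Over the alternatives 4 (without vehicle 4 or without CCl4 2) to 11 (DESeq2) rose, and 1 fell when scaled by upper quartile or library size only. Psap, the precursor of the saposins, went from 1141 ± 341 to 9000 ± 3235 CPM and Ctsd, the protease cathepsin D, from 4248 ± 803 to 25269 ± 4630 CPM (SD, n = 4). The lysosomal glycosidase gene Gusb had a log2 fold change of 1.06. Ctsb, the most abundant of the list, went from 22583 ± 2844 to 29702 ± 5174 CPM, short of the threshold at an edgeR adjusted p = 0.194.

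Of 16 lysosomal membrane and proton pump genes, 5 rose and none fell (31.2% against 15.2% of all genes), with a median of 0.33. The largest change was that of Atp6v0d2, a pump subunit of osteoclasts and macrophages, from 4.88 ± 1.53 to 396 ± 147 CPM (SD, n = 4). The membrane protein gene Cd63 and the pump subunits Atp6v0a1 and Atp6v1a had log2 fold changes of 2.61, 1.80 and 1.09. Of 10 autophagy genes, 1 rose, Gabarapl1 (log2 fold change 0.69). This is 10% of the list against 15.2% of all genes, so nothing is read from the count. The receptor gene Sqstm1, the most abundant, was at 1131 ± 277 CPM in vehicle and 1171 ± 237 in CCl4 (SD, n = 4). Without vehicle 2 and CCl4 4, 4 autophagy genes rose.

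Of 9 tested osteoclast genes known under Mitf and Tfe3, 4 rose, 44.4% against 15.2% of all genes (6 rose with DESeq2 and without vehicle 2 and CCl4 4). The 4 were Gpnmb, a membrane glycoprotein, by a log2 fold change of 8.28, Atp6v0d2 by 6.34, Ctsk, the collagen-degrading cathepsin K, by 4.05 and Dcstamp, a fusion protein gene, by 3.47. Gpnmb also belongs to the lipid-associated macrophage markers and Atp6v0d2 to the pump list. The others of the list did not pass, and Oscar was too low to be tested. Of 8 pigment genes known under Mitf, 3 could be tested and none was called. Slc45a2, a melanosome transporter gene, was at 0 in all vehicle libraries and at 0 to 0.0425 CPM in CCl4, too low to be tested.

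Among 8 genes of the interleukin-4 response or linked to Tfec, 3 rose and 2 fell (62.5% against 15.2% of all genes). Chil3, a chitinase-like protein gene, and Arg1, arginase 1, had log2 fold changes of 4.91 and 3.80, and Csf3r, the G-CSF receptor gene and a known Tfec target, went from 96.9 ± 34.4 to 179 ± 39.0 CPM (SD, n = 4; log2 fold change 0.88, edgeR adjusted p = 0.0431). Csf3r did not pass in 7 of 16 alternatives, which were library size only, length-scaled TPM and leaving out vehicle 1, vehicle 3, CCl4 1, CCl4 2 or CCl4 3 (adjusted p up to 0.11). The fallen genes were the lectin receptors Mrc1 (-0.74) and Clec10a. Neither passed with a replicate block or without vehicle 1, vehicle 3, vehicle 4, CCl4 1 or CCl4 4 (adjusted p up to 0.0932 and 0.124), and Clec10a also not without CCl4 3, without a filter or with length-scaled TPM. Of 16 tested genes for other E-box binding leucine zipper factors, 3 rose and 2 fell (31.2%). Max, the common partner of the Myc family, went from 10.4 ± 1.68 to 29.9 ± 11.4 CPM, whereas Myc went from 86.5 ± 18.7 to 46.4 ± 8.83 CPM (SD, n = 4). Usf2 rose by 0.88 and Mlxipl fell by 1.30 on the log2 scale, and Usf1, the most abundant, did not pass (-0.21). Mlxipl did not pass in 8 of 16 alternatives, which were limma voom, leaving out vehicle 1, 2 or 4 or CCl4 1, 3 or 4, and without vehicle 2 and CCl4 4 (adjusted p up to 0.167).

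**Figure D5:**
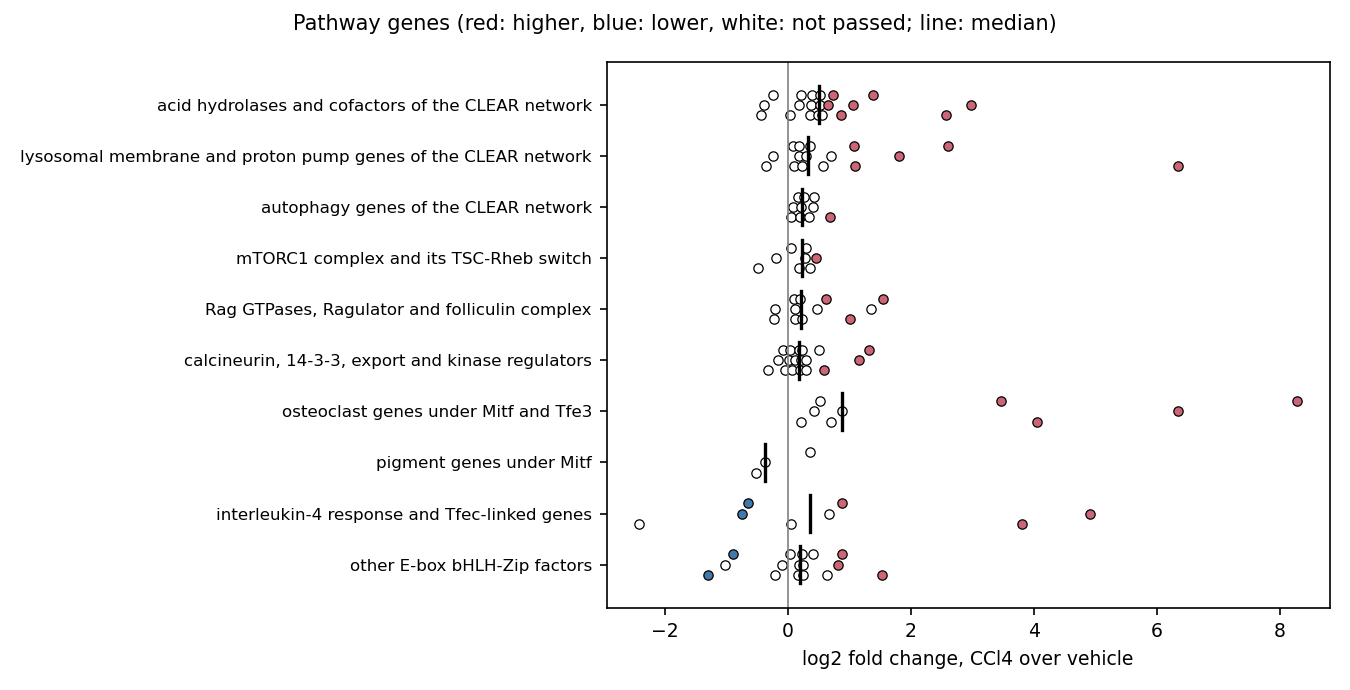
Log2 fold change, CCl4 over vehicle, of each tested gene in the 10 lists; red points rose, blue fell, white did not pass, and the black line is the median of the list. Most medians lie between 0.19 and 0.51, with osteoclast genes at 0.88 and the 3 tested pigment genes at -0.36.

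RefSeq promoter windows were also searched for the E-box in the listed genes. Of 11 genes of the Rag, Ragulator and folliculin list with a window, 5 held it (Rragb, Rragc, Lamtor1, Lamtor4 and Fnip1), against 10.9% of 11374 tested genes with a window. None of these 5 was among the 3 that rose. Of the other lists with windows for enough genes, the E-box was held by 5 of 14 genes for other leucine zipper factors (35.7%), 1 of 7 for mTORC1 (14.3%) and none of 7 for the interleukin-4 response. For the other 6 lists, among them the acid hydrolases (14 of 20 genes with a window) and the membrane and pump genes (12 of 16), the check is void, because fewer than 80% of the list had a window.

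The genes most alike in pattern to each member were ranked by Pearson's r of log2 CPM over the 8 libraries, among 9767 genes with a mean of 5 CPM or more. The libraries share their groups and preparation, so the values are a description. For Tfec they were Gstp2 (r = 0.993), Rpa2, Rasgrp2, Zfp326 and Jade1, each with all CCl4 libraries below all vehicle libraries. For Mitf they included Actr2 (r = 0.99), Cdv3, Stk11 and Ahcyl1. For Tfe3 they were Ss18 (r = 0.997), Tbcd, Rasa3, Fig4 and Elmo2, all lowest in vehicle 2 and highest in CCl4 3 as Tfe3 was. For Tfeb they were H13 (r = 0.961), St3gal3, Ppp1r10, BC029722 and Ass1, all highest in CCl4 3.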

How the data were processed

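RNA of 8 libraries was analysed from the deposited tables. Per the labels' protocols, the SMART-Seq HT kit amplified the RNA, and the library kit was NEBNext Ultra II. No step that marks the strand is named, but no other gene's exons overlap those of the 4 genes. Estimated counts and TPM per transcript were deposited by the authors for each library, and FPKM per gene for the series. Per the submitters' processing notes, kallisto, edgeR, limma and mm10 were used. Their versions, and the making of the FPKM, are not given in the sources here.

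Of 117494 transcripts per file, 116405 matched GENCODE M21 by identifier without version (13 with version). The 1089 unmatched held 0.29% to 0.313% of the counts and were left out. All 42 transcripts of the 4 genes had the M21 length. Estimated counts were summed per gene and rounded, filtered with filterByExpr (minimum count 10, total 15; 15212 genes kept, 20694 set aside), scaled by TMM and tested with edgeR 4.0.16 in R 4.3.3, two-sided, with group as the sole term. SE is the log2 fold change divided by the square root of the F statistic. Transcripts were tested likewise, and their use with edgeR's diffSpliceDGE. FPKM were tested with limma 3.58.1 on log2(FPKM + 1) for genes at 1 or more in 4 libraries. The 1 unnamed FPKM line, 0.0156% to 0.0369% of a column, was left out. Shares were tested by exact permutation (scipy 1.17.1). CPM of cell type markers are of the library total.

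The scripts were tested on simulated data. The test of use gave unbiased estimates, but at the spread of these libraries it missed most of the changes put in, and more of its calls were false than its threshold allows, so its calls carry little weight. Members, lists and tests were chosen with earlier results of these data known. Named were the 4 genes and their transcripts, per list up to 4 called genes of largest change and the most abundant, and the 5 genes most alike to each member; some genes under this rule are not reported here. Clec10a, Hdc, Kit and the E-box genes were named after their values were seen. Alternatives were other scalings, DESeq2 1.42.0, limma voom, no filter, length-scaled TPM, other FPKM settings, a replicate block and leaving libraries out.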

Additional observations from a re-analysis of the deposited data

Results flagged for a closer look

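In 76 groups of 4 libraries, 15 had a library whose gap to its nearest neighbour took up more of the range of its group than Dixon's 95% critical value. Chance flags about 1 in 20 groups, and shares of one gene are not independent of each other. No cause was tested.

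In 8 of the 15, the library was vehicle 2. Its Tfe3 level of 84.7 TMM-normalized CPM lay below the other vehicle libraries at 173.8 to 180.4. Of the Tfe3 TPM in vehicle 2, Tfe3-204 held 13.8% (others 30.1% to 32.9%), Tfe3-205 36.5% (15.1% to 17.9%), Tfe3-210 11.5% (2.69% to 4.07%), the start class of Tfe3-201 17.4% (31.7% to 33.9%) and that of Tfe3-203 and Tfe3-205 41.3% (16.0% to 17.9%). Tfeb-212 held 52.0% of Tfeb there (27.6% to 28.8%), and the main Tfec start class 91.8% (97.0% to 97.6%).

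Other libraries stood apart as follows. In CCl4 3, Tfe3 was highest at 203.9 TMM-normalized CPM (163.8 to 167.3), and the FPKM of Tfeb was highest at 4.33 (2.05 to 2.22). Mitf-202 held 51.2% of Mitf in CCl4 4 (43.6% to 43.8%). Tfeb-204 held 5.35% of Tfeb in CCl4 2 and 0 in the other CCl4 libraries, and Tfeb-206 held 11.9% in vehicle 3 (1.96% to 3.52%). Tfeb-201 held 7.27% in vehicle 1 and 22.8% in CCl4 1, and at most 0.00104% in the rest of either group.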

How the results depend on the processing

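The rise of Mitf passed in all 16 alternatives at the gene level (log2 fold change 0.75 to 1.05, adjusted p 0.000886 to 0.0454) and in none of 11 in the FPKM table, where it could not be fitted without both vehicle 2 and CCl4 4, since the filter then removed it. The fall of Tfec passed in all 16 at the gene level (-0.92 to -0.72), all 12 in FPKM and all 13 for Tfec-201. Tfeb and Tfe3 passed in none. Leaving out 1 library at a time moved Tfe3 from -0.0117 to 0.28 at the gene level and from -0.26 to 0.12 in FPKM, Tfe3-201 from -0.0703 to 0.53, Tfe3-204 from -0.30 to 0.18 and Tfeb-212 from -0.40 to 0.0877. It gave 1 or 2 called member transcripts, 578 (without CCl4 1) to 1163 genes called lower and 1 to 4 listed genes called lower. Without vehicle 2 and CCl4 4 together, the sign turned for Tfe3-201 (-0.0597), Tfe3-212 (-0.0013), Tfeb-202 (-0.0036) and Tfeb-212 (0.25).

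Scaling by library size only gave 1082 genes higher and 1431 lower, and upper-quartile scaling 1226 and 1356, against 1358 and 953, with the median over all genes at -0.16 and -0.12 against -0.03. Relative to that shift, Mitf stayed higher and Tfec lower, and Tfe3-205 turned to -0.0305 with library size only. The causes were not tested.

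Replicate numbers are not stated to pair the libraries. Deviations of same-numbered libraries from their group means correlated at 0.0152, -0.241, 0.0387 and -0.169. Those of differently numbered libraries ran from -0.46, for vehicle 1 with CCl4 4, to 0.472, for vehicle 2 with CCl4 4. With 4 libraries per group, these values cannot decide whether libraries were paired. With a replicate block Mitf changed by 0.86 (adjusted p = 0.0437) and Tfec by -0.79 (adjusted p = 0.00637), Tfe3-204 turned to 0.0906, and 1281 genes were higher, 829 lower and 2 listed genes lower, against 4. Counts of 404 to 628 for Tfeb limit its transcript shares.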
